A study of Mus with 6 samples.

Results

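Of the 48882 genes in the expression matrix, 10 long noncoding RNA genes of 3 kinds were followed here in mouse liver. Neat1 and Malat1 are RNAs found in nuclear bodies, Gas5, Snhg1, Snhg8 and Snhg12 are host genes of small nucleolar RNAs (snoRNAs), and H19, Meg3, Rian and Mirg are imprinted noncoding RNAs. They were taken by gene symbol, and all 10 were found, each with the gene type lncRNA in the table. The livers came from mice with the genotype FABP4 knock out (KO, 3 samples) and from their wild type (WT) littermates (3 samples). Every mouse, controls included, had been fed a Lieber-DeCarli liquid diet with ethanol for 8 weeks followed by a single ethanol binge, a model of alcoholic steatohepatitis, so no liver free of ethanol enters the comparison. The labels give neither the age and strain of the mice nor the way in which Fabp4, a fatty acid-binding protein gene, was deleted. The comparison asks how loss of Fabp4 alters the liver transcriptome in this disease.

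Neat1 is the scaffold on which paraspeckles assemble, nuclear bodies that hold back certain RNAs and proteins, and its synthesis responds to cell stress. Malat1 is an abundant RNA of nuclear speckles, where splicing factors are stored. The snoRNA host genes are transcribed and spliced like mRNA genes, their introns are trimmed into snoRNAs that guide ribosomal RNA modification, and the leftover exons are in several cases removed by nonsense-mediated decay. Such hosts accumulate when growth or translation stops, as the name Gas5, growth arrest specific, records. H19 is transcribed from the maternal chromosome only, is among the most abundant RNAs of fetal liver and is silenced there after birth. Meg3, Rian and Mirg lie together in the imprinted Dlk1-Dio3 domain, are also maternally expressed, and carry snoRNAs and microRNAs in their transcripts.

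Expression is given as TPM, a measure of each gene's share of all transcripts that is corrected for gene length, and levels of different genes are compared here on that scale. The sequencing depth behind these values is unknown. Between 20664 and 21438 genes had a value in a library. Fabp4 was at 14.7, 8.15 and 19.96 TPM in the WT libraries and listed without a value in each KO library. Liver identity was plain from hepatocyte genes such as Apoa1, an apolipoprotein, at 7112 to 11012 TPM in the 6 libraries. Among all genes tested, principal component analysis set off WT replicate 2 along its leading axis (-38.1, against -2.50 to 22.3) and KO replicate 1 along the next (-30.8, against -5.92 to 21.8). KO replicates 2 and 3 lay at the other end of the leading axis (22.3 and 21.55), and the remaining libraries between (-2.50 to -1.31).

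The 10 RNAs spanned more than 3 orders of magnitude in level. Malat1 led with a mean of 89.2 TPM over the 6 libraries and was the 15th most abundant of 16482 genes of long noncoding types. Gas5 followed at 35.9 TPM, Snhg8 at 29.9, Snhg1 at 19.7 and Snhg12 at 16.0. Neat1 was at 4.73 TPM, H19 at 1.39, Rian at 0.221, Meg3 at 0.0698 and Mirg at 0.0366. The order held in all 6 libraries for 6 of the 9 neighbouring pairs. Gas5 exceeded Snhg8 in 5 of 6 libraries, Snhg1 exceeded Snhg12 in 4 of 6 and Meg3 exceeded Mirg in 5 of 6, and the ranges of these 3 pairs overlapped. The matrix gives 1 value per gene, so the short and long forms of Neat1 cannot be separated. The Neat1 values were scaled to a length of 20773 bases, the whole span of the gene.

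**Figure D1:**
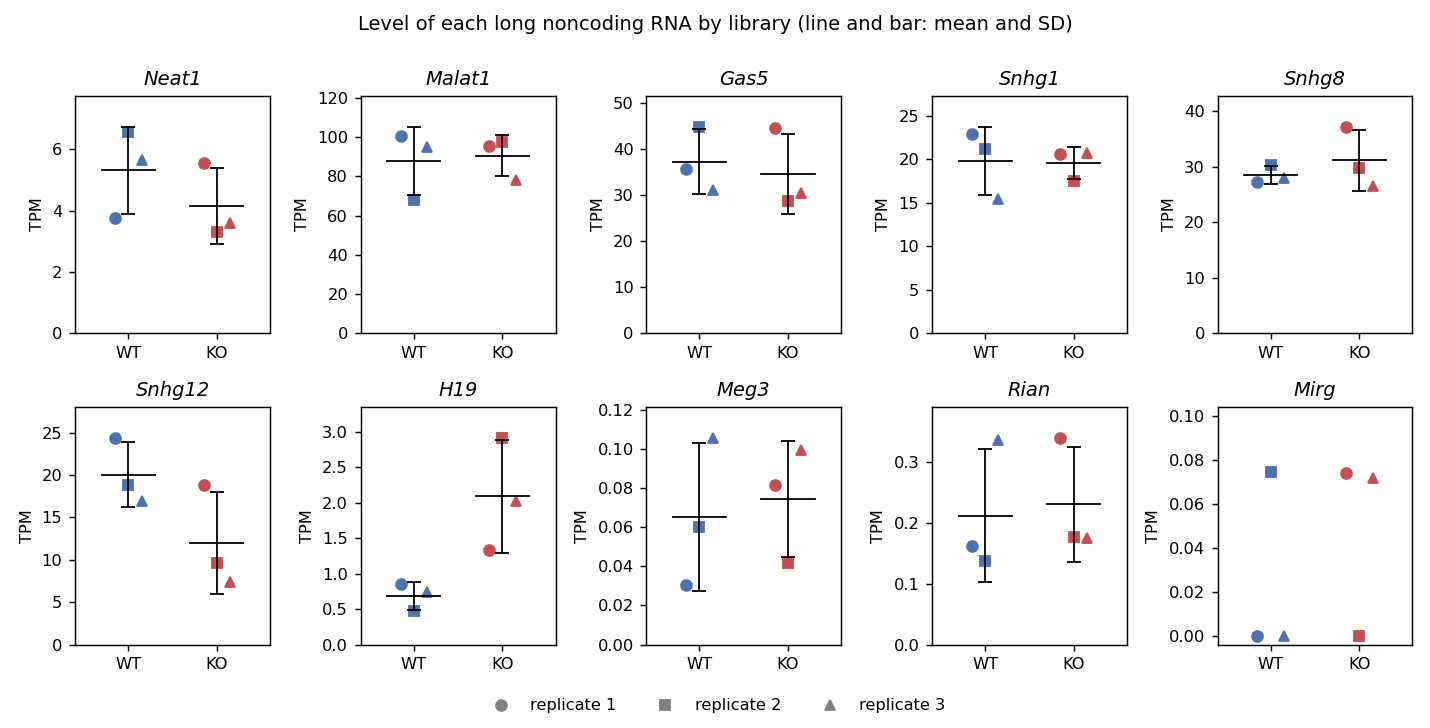
Level in TPM (linear axes, a separate scale for each gene) of the 10 long noncoding RNAs in WT and KO libraries; symbols mark the replicates, the horizontal line the mean and the bar the SD of 3 libraries, left out for Mirg, which was listed without a value in 3 libraries. The KO values lie wholly above the WT values for H19 (1.33 to 2.91 against 0.470 to 0.856 TPM) and overlap with them for each of the other genes.

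The groups were compared by limma on log2(TPM + 1), with Benjamini-Hochberg adjustment over the 14155 genes that averaged at least 0.5 TPM. Of the 10 RNAs, 7 passed this filter, and Meg3, Rian and Mirg did not. None of the 7 passed the adjusted threshold of 0.05, against 0.00706% of all genes tested, which is Fabp4 alone. At an unadjusted p under 0.05 there were 2 of the 7, H19 with a higher and Snhg12 with a lower mean in KO, against 8.03% of all genes (5.12% higher and 2.91% lower in KO). The split of these genes, 725 higher and 412 lower, became 580 and 521 after median scaling. The differences of the 7 ranged from -0.78 to 0.85 on the log2 scale with a median of -0.00076, against a median of 0.04 over all genes tested. The design allows an exact two-sided permutation p of 0.1 at the least. The labels do not state that each sample is a separate mouse, so that the spread behind each p-value is one between libraries and may be technical.

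**Figure D2:**
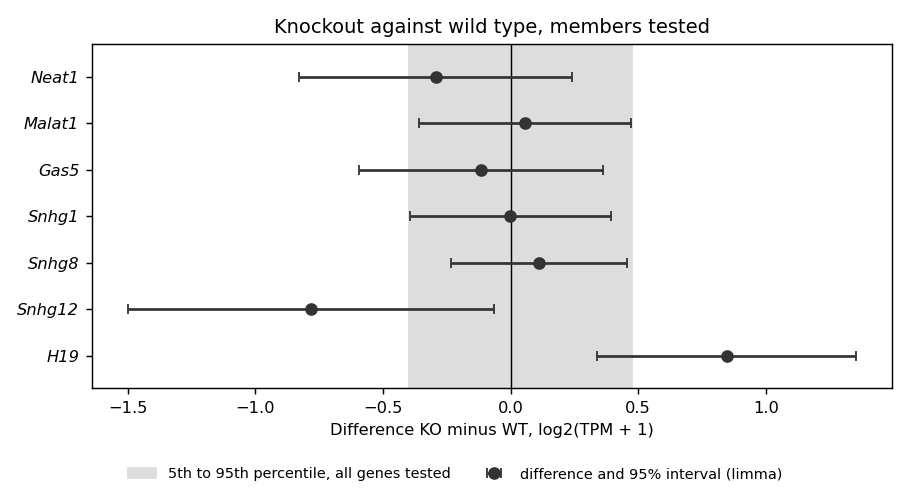
Difference KO minus WT on the log2(TPM + 1) scale for the 7 RNAs tested; points are limma estimates, bars their 95% intervals, and the grey band spans the 5th to 95th percentile of all genes tested (-0.40 to 0.48). H19 (0.85) and Snhg12 (-0.78) lie outside the band and the other 5 inside it.

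Neat1 (mm10 chromosome 19, 5824708 to 5845480, minus strand) stood at 3.75, 6.55 and 5.63 TPM in WT replicates 1, 2 and 3 and at 5.56, 3.30 and 3.58 TPM in KO replicates 1, 2 and 3. KO replicates 2 and 3 were below every WT library, while KO replicate 1 was within the WT range. The means were 5.31 ± 1.42 TPM in WT and 4.15 ± 1.24 TPM in KO (SD, n = 3 each). The difference was -0.29 on the log2(TPM + 1) scale (95% interval -0.83 to 0.24; limma adjusted p 0.785; exact permutation p 0.2), smaller than the spread between libraries could resolve. It was -0.49 without WT replicate 1, -0.48 without KO replicate 1, -0.15 without WT replicate 2 and -0.18 without KO replicate 2, so that single libraries moved it by over 1.5 times.

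Malat1 (chromosome 19, 5795690 to 5802671, minus strand) lies 22.0 kb from Neat1. Its levels were 101, 67.9 and 94.8 TPM in WT and 95.3, 97.7 and 78.4 TPM in KO. The lowest value was that of WT replicate 2, the library in which Neat1 was highest, and the groups overlapped. The means were 87.8 ± 17.6 and 90.5 ± 10.5 TPM (SD, n = 3 each), with a log2 difference of 0.06 (95% interval -0.36 to 0.47; limma adjusted p 0.962). The difference ran from -0.12 without WT replicate 2 to 0.16 without WT replicate 1. Malat1 exceeded Neat1 by 10.4 to 26.9 times in the WT libraries and by 17.1 to 29.7 times in the KO libraries. These ratios rest on the length of 20773 bases to which Neat1 was scaled, with its short and long forms not separated. The table also lists 2 unnamed genes on the opposite strand inside Malat1, 1 of them at 56.9 to 65.1 TPM. Whether reads were counted by strand is not given in the sources used here, and reads of Malat1 and of these genes may not be told apart.

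Proteins that work with these RNAs were taken as 2 lists. Of 14 genes for paraspeckle proteins, 6 had a higher and 8 a lower mean in KO, none past the adjusted threshold, with a median log2 difference of -0.05. Among all genes tested 57.4% had a higher mean. The number of paraspeckle genes higher in KO was 3 without WT replicate 3 and 9 without WT replicate 2. The core paraspeckle proteins Nono and Sfpq, which bind along Neat1, differed by 0.05 each (SE 0.12 and 0.14). The smallest p-values of the list belonged to Dazap1 (0.20, SE 0.14), Hnrnph3 (-0.19, SE 0.15) and Rbm14 (0.21, SE 0.19), all RNA-binding proteins found in paraspeckles. Of 14 genes for nuclear speckle proteins, 12 had a higher mean in KO, none past the adjusted threshold, and the median was 0.10. The higher count was 10 of 14 after median scaling. In the values as deposited, the summed level of the 14 was 503.5 to 526.5 TPM in WT and 552.7 to 569.1 TPM in KO, without overlap. Median scaling raises the values of WT replicate 3 and lowers those of KO replicate 1, after which these sums overlap. The splicing factor Srsf7 averaged 18.4 ± 2.07 TPM in WT and 24.6 ± 3.69 TPM in KO (log2 0.40, SE 0.15; limma adjusted p 0.580). Srsf6 averaged 48.1 ± 4.24 and 58.2 ± 3.29 TPM (log2 0.27, SE 0.12), with no overlap between groups, and Srsf2 differed by 0.19 (SE 0.13).

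Among the snoRNA hosts, Gas5 (chromosome 1, 161035166 to 161038537, plus strand) was at 35.7, 44.9 and 31.1 TPM in WT and at 44.5, 28.6 and 30.4 TPM in KO. It was highest in WT replicate 2 and KO replicate 1, the libraries farthest out on the leading and the next principal component, and the groups overlapped. The means were 37.2 ± 7.02 and 34.5 ± 8.72 TPM (SD, n = 3 each), a log2 difference of -0.12 (95% interval -0.60 to 0.36; limma adjusted p 0.920). Without both of these libraries the difference was -0.17, without WT replicate 2 alone 0.0225 and without KO replicate 1 alone -0.31.

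Snhg1 (chromosome 19, 8723487 to 8726326, plus strand) was at 22.9, 21.1 and 15.4 TPM in WT and at 20.6, 17.5 and 20.7 TPM in KO. Its means of 19.8 ± 3.93 and 19.6 ± 1.82 TPM (SD, n = 3 each) were nearly equal, with a log2 difference of -0.00076 (95% interval -0.39 to 0.39), and the groups overlapped. The difference ran from -0.16 without WT replicate 3 to 0.11 without WT replicate 1. Snhg8 (chromosome 3, 123507552 to 123508336, minus strand) was at 27.3, 30.4 and 28.0 TPM in WT and at 37.3, 29.9 and 26.5 TPM in KO, with KO replicate 1 the highest and KO replicate 3 the lowest. It was the steadiest of the 4 hosts between libraries, with a within-group SD of 0.18 on the log2 scale against 0.22 to 0.49 for the others and a median of 0.21 over all genes tested. Its log2 difference was 0.11 (95% interval -0.24 to 0.46; limma adjusted p 0.889), and it was -0.0204 without KO replicate 1.

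Snhg12 (chromosome 4, 132308678 to 132311024, plus strand) stood out among the hosts. Its levels were 24.4, 18.8 and 17.0 TPM in WT and 18.8, 9.66 and 7.39 TPM in KO. KO replicates 2 and 3 were well below every WT library, and KO replicate 1 was level with WT replicate 2. The means were 20.1 ± 3.87 and 11.97 ± 6.06 TPM (SD, n = 3 each), a KO level of 0.597 of that in WT. The log2 difference was -0.78 (95% interval -1.50 to -0.07; unadjusted p 0.0358 and adjusted p 0.584 from limma; exact permutation p 0.3). Of all genes tested, 2.15% had a larger absolute difference. It was -1.14 without KO replicate 1 and -0.52 without KO replicate 3, and the adjusted p lay between 0.460 and 0.991 over the alternatives tried.

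Set against another host in the same library, Snhg12 was at 0.606 to 0.892 of the Snhg8 level in WT and at 0.279 to 0.506 in KO, with no overlap. Against Gas5 the same ratio was 0.419 to 0.682 in WT and 0.243 to 0.423 in KO, and against Snhg1 it was 0.890 to 1.10 in WT and 0.357 to 0.917 in KO. KO replicate 1 was the overlapping library in the latter pair of ratios. These ratios were formed after the values were seen and are given without a test.

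**Figure D3:**
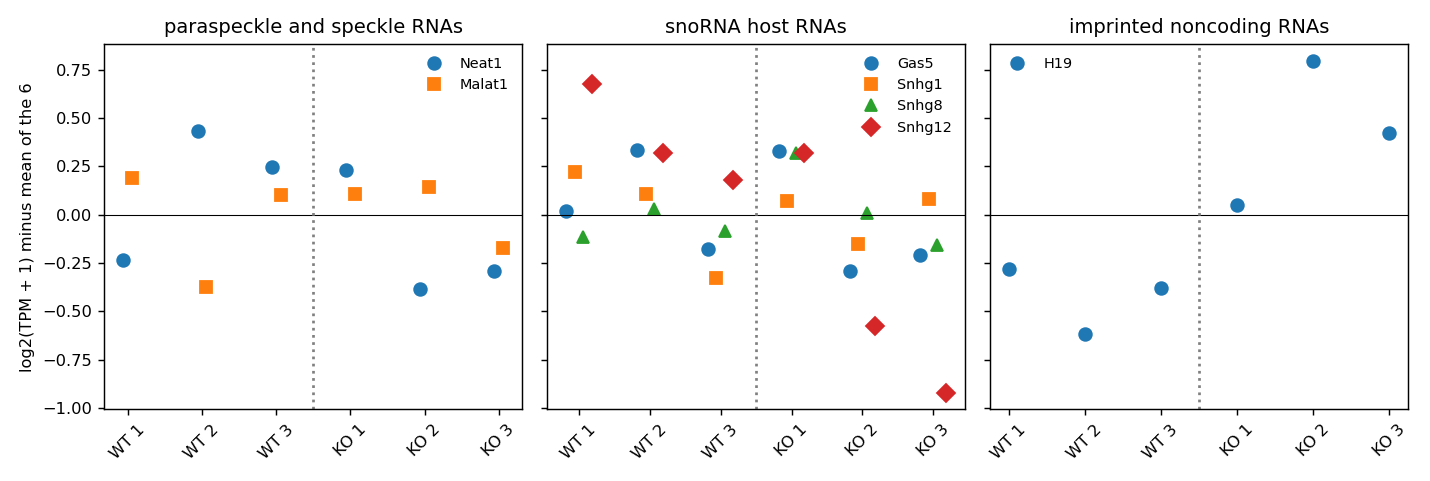
Deviation of each RNA from its own mean over the 6 libraries, on the log2(TPM + 1) scale, for the 7 RNAs tested; each point is 1 library and the dotted line parts WT from KO. Snhg12 is lowest in KO replicates 2 and 3 (-0.57 and -0.92), Gas5 is highest in WT replicate 2 and KO replicate 1 (0.34 and 0.33), and H19 is above its mean in every KO library.

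Other host genes of snoRNAs were looked at as a list of 16. Of the 14 tested, 12 had a lower and 2 a higher mean in KO, none past the adjusted threshold, with a median log2 difference of -0.15. Among all genes tested 6030 of 14155 had a lower mean, and 762 of 1379 among those of long noncoding types. The count depended on WT replicate 2: 8 of 13 were lower without it, and 9 of 14 without it and KO replicate 1. The median did not shrink with these omissions, at -0.18 and -0.21. It lay between -0.27 and -0.10 when any 1 library was left out. In WT replicate 2 Snhg6 was at 61.3 TPM, against 21.5 to 41.7 TPM elsewhere, and Snhg3 at 13.8 TPM, against 4.78 to 7.80 TPM. Epb41l4aos, an antisense transcript that hosts a snoRNA, averaged 26.3 ± 5.71 TPM in WT and 16.5 ± 6.07 TPM in KO (log2 -0.68, SE 0.29; limma adjusted p 0.607). Snhg20 (-0.53, SE 0.27) and Snhg5 (-0.30, SE 0.17) had the next smallest p-values.

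The snoRNAs themselves are short and were poorly captured. The table places 14 snoRNA genes inside the 10 RNAs, of which 7 had a value in any library. Inside Snhg12, Snora16a was at 4.30, 1.47 and 2.20 TPM in WT and at 2.36, 2.59 and 3.63 TPM in KO, a spread that did not follow the host. Snord47, inside Gas5, had a value in KO replicates 1 and 3 only (1.63 and 2.51 TPM). Snora24, inside Snhg8, had none in any library, although its host was above 26 TPM throughout. A snoRNA gene of 136 bases or less can hold few reads at these levels, and reads of an unspliced host can fall in it.

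The machinery around the hosts was taken as 2 further lists. Of 16 genes for snoRNA-binding proteins and nucleolar growth, 9 had a higher and 7 a lower mean in KO, none past the adjusted threshold, with a median of 0.05. The number higher was 15 of 16 without WT replicate 2 and 14 without KO replicate 2. Nop56, a core protein of the box C/D snoRNA particle, averaged 13.0 ± 3.01 TPM in WT and 19.7 ± 4.83 TPM in KO (log2 0.56, SE 0.23; limma adjusted p 0.599). Its partner Nop58 differed by 0.25 (SE 0.19) and Ubtf, which activates ribosomal RNA transcription, by 0.20 (SE 0.12). Of 11 factors of nonsense-mediated decay, 7 had a higher and 4 a lower mean, none past the adjusted threshold, with a median of 0.07, which became -0.03 without WT replicate 3. The paralogues Upf3b and Upf3a, which link decay to the exon junction, differed by 0.21 (SE 0.15) and -0.22 (SE 0.18).

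**Figure D4:**
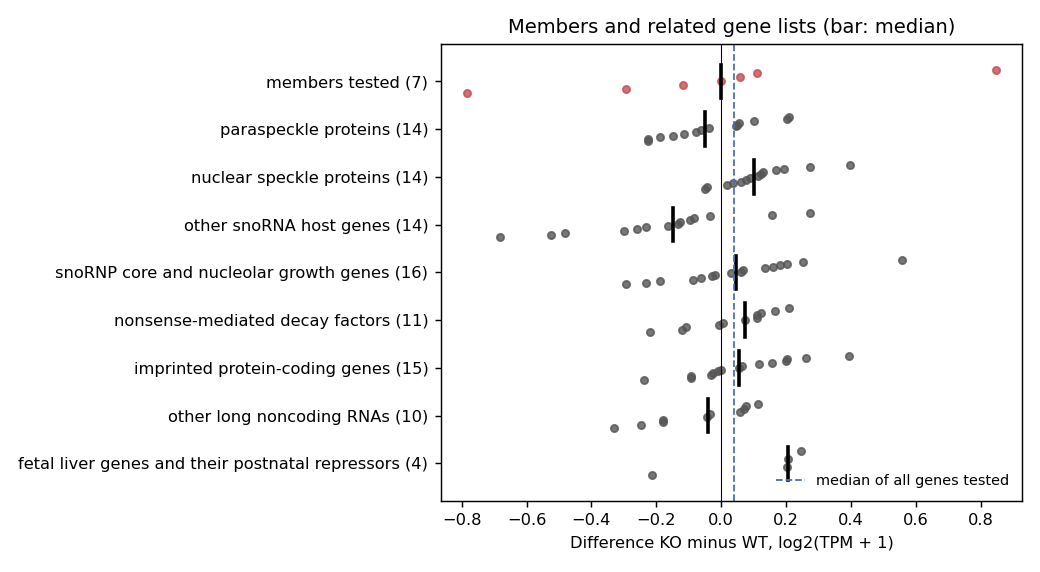
Differences KO minus WT on the log2(TPM + 1) scale for the 7 RNAs tested and for the tested genes of 8 related lists; each point is 1 gene, black bars are list medians, the dashed line is the median of all genes tested (0.04), and numbers in brackets are genes tested. The other snoRNA hosts have the lowest median of the 8 lists (-0.15), and no gene shown passed the adjusted threshold.

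H19 (chromosome 7, 142575530 to 142578146, minus strand) was the 1 RNA of the 10 whose groups did not overlap. It was at 0.856, 0.470 and 0.734 TPM in WT replicates 1, 2 and 3 and at 1.33, 2.91 and 2.02 TPM in KO replicates 1, 2 and 3. Every KO library was above every WT library, and the gap was narrowest at KO replicate 1. The means were 0.687 ± 0.197 and 2.09 ± 0.793 TPM (SD, n = 3 each), a ratio of 3.04, all at a low level. The log2(TPM + 1) difference was 0.85 (95% interval 0.34 to 1.35), with an unadjusted p of 0.00506 and an adjusted p of 0.522 from limma. The exact permutation p was 0.1, the smallest that 3 against 3 libraries can give. With a pseudocount of 0.1 the difference was 1.44, since a pseudocount of 1 damps the change of a gene near 1 TPM.

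Non-overlap with KO higher was found for 8.94% of all genes tested and for 1 of these 7 RNAs, and non-overlap with KO lower for 4.38% of all genes and for none of the 7. After median scaling, which kept the H19 groups apart, it was 6.77% of all genes. Of all genes tested, 1.69% had a larger absolute difference than H19. The difference lay between 0.66 and 1.03 when any 1 library was left out, and the adjusted p between 0.402 and 0.989 over the alternatives. The WT mean was itself above the filter of 0.5 TPM. In a bulk sample, more H19 RNA per cell and more cells that hold it cannot be told apart.

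Marker lists of other cell types differed between the groups in mean as well, with no marker past the adjusted threshold and a smallest limma adjusted p of 0.345. All 6 endothelial markers had a higher mean in KO, and their summed level was 79.7 to 110.5 TPM in WT and 111.4 to 125.6 TPM in KO. All 8 stellate cell and fibroblast markers were higher in mean too, with sums of 278.6 to 341.7 TPM in WT and 327.2 to 395.5 TPM in KO. The 6 macrophage markers, all higher in mean, summed to 119.9 to 316.7 TPM in WT and to 217.6 to 555.5 TPM in KO. The 5 cholangiocyte, 4 tested lymphocyte and 5 red blood cell markers were also all higher in mean, as were 57.4% of all genes tested. Without KO replicate 3, 2 of the 5 red blood cell markers were higher. Cholangiocyte markers fell to 4 of 5 without WT replicate 1 or WT replicate 3. Lymphocyte markers fell to 3 of 4 without WT replicate 2 or KO replicate 1. Endothelial markers fell to 5 of 6 and stellate cell markers to 7 of 8 without WT replicate 2. The 3 neutrophil markers tested were all lower in mean, and the neutrophil sum was 19.8 to 48.7 TPM in WT and 14.3 to 19.6 TPM in KO, with Ly6g and Mpo at 0 outside WT replicate 2. The adipocyte sum, nearly all Cidec, was 16.2 to 85.9 TPM in WT and 8.93 to 45.4 TPM in KO. Of the 4 adipocyte markers only Cidec was lower in mean. The other 3, all below the filter, were higher, with Adipoq listed in KO replicate 1 alone (1.99 TPM). The endothelial and macrophage sums were highest in KO replicate 3, the stellate cell sum in KO replicate 1 and H19 in KO replicate 2. The macrophage sum and H19 were lowest in WT replicate 2, and the stellate cell sum in WT replicate 3. The endothelial sum was nearly equal in these libraries, at 79.98 TPM in WT replicate 2 and 79.70 TPM in WT replicate 3. The part of these cells in the H19 values was not tested.

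H19 shares regulators with other genes of the fetal liver. Afp, the fetal counterpart of albumin, was at 5.63, 4.995 and 2.51 TPM in WT and at 5.34, 4.18 and 5.49 TPM in KO, with overlapping groups (log2 0.20, SE 0.25). Gpc3, a fetal and tumour glypican, differed by 0.24 (SE 0.38). Zhx2, a repressor of H19, Afp and Gpc3 in adult mouse liver, averaged 4.55 ± 0.467 TPM in WT and 5.44 ± 1.003 TPM in KO (log2 0.21, SE 0.16). Zbtb20, which represses Afp, differed by -0.21 (SE 0.18). None of the 4 passed the adjusted threshold.

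Igf2, the paternally expressed neighbour that shares an imprinting control region with H19, was nearly silent in every library. It was at 0.115, 0.118 and 0.302 TPM in WT and at 0.242, 0.0356 and 0.0923 TPM in KO. KO replicate 2 had the highest H19 and the lowest Igf2. WT replicate 2, with the lowest H19, was below WT replicate 3 and KO replicate 1 in Igf2, and the groups overlapped. The microRNA gene Mir675, which lies within H19, had no value in any library.

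The 3 RNAs of the Dlk1-Dio3 domain were close to the floor of the table. Rian (chromosome 12, 109603945 to 109661716, plus strand) was at 0.162, 0.137 and 0.336 TPM in WT and at 0.339, 0.177 and 0.175 TPM in KO. Meg3 (chromosome 12, 109540996 to 109571729, plus strand) was at 0.0306, 0.0598 and 0.106 TPM in WT and at 0.0817, 0.0414 and 0.0996 TPM in KO. The groups overlapped for both. Mirg (chromosome 12, 109734981 to 109749458, plus strand) had a value in WT replicate 2 and in KO replicates 1 and 3, at 0.0742, 0.0738 and 0.0715 TPM, and was listed without one in the other 3. Fitted without the abundance filter, the log2(TPM + 1) differences of Rian, Meg3 and Mirg were 0.02 (SE 0.09), 0.01 (SE 0.04) and 0.03 (SE 0.05), on a scale where the pseudocount far exceeds the values.

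Rian exceeded Meg3 in all 6 libraries, by 1.75 to 5.29 times. Their protein-coding neighbours were as low: Dlk1 had a value in KO replicates 1 and 2 only (0.0191 and 0.0370 TPM) and Rtl1 in KO replicate 1 only. Dio3, which encodes the enzyme that inactivates thyroid hormone, was higher, at 0.519, 0.205 and 0.693 TPM in WT and at 0.381, 0.571 and 0.814 TPM in KO. All 16 microRNA genes that the table places inside H19, Meg3, Rian and Mirg lacked a value in every library.

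Of 21 imprinted protein-coding genes elsewhere and in these domains, 15 were tested. Of these, 8 had a higher and 7 a lower mean in KO, none past the adjusted threshold, with a median log2 difference of 0.05. The signalling gene Gnas averaged 58.0 ± 4.55 TPM in WT and 69.9 ± 8.38 TPM in KO (log2 0.26, SE 0.13). Its groups did not overlap in the values as deposited, as for 8.94% of all genes tested with KO higher. The nearest values, 62.2 TPM in WT replicate 3 and 63.5 TPM in KO replicate 3, change order with median scaling. Sgce, a sarcoglycan gene, differed by 0.39 (SE 0.20) and the amino acid transporter gene Slc38a4 by -0.24 (SE 0.16). Cdkn1c, the cell cycle inhibitor of the domain next to H19, was at 3.25 to 4.13 TPM in WT and at 3.67 to 4.91 TPM in KO.

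Further long noncoding RNAs were taken as a list. Of 14 listed, 10 were tested, 4 higher and 6 lower in mean in KO, none past the adjusted threshold, with a median of -0.04. The number higher was 2 of 10 without WT replicate 2 or KO replicate 1, and 6 of 11 without WT replicate 1 or KO replicate 2. Airn, the imprinted antisense transcript of Igf2r, averaged 1.74 ± 0.422 TPM in WT and 1.18 ± 0.392 TPM in KO (log2 -0.33, SE 0.19). Jpx and Ftx, both noncoding genes of the X-inactivation centre, differed by -0.25 (SE 0.19) and -0.18 (SE 0.15), and Ftx did so with no overlap between groups. Of all 1379 tested genes of long noncoding types, 617 had a higher and 762 a lower mean, with a median of -0.04 against 0.04 over all genes.

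For the most abundant RNA of each kind, the named genes with the most similar profile over the 6 libraries were sought by the root mean square distance of centred log2(TPM + 1) values. For Malat1 they were Pex6 (distance 0.02), Sugct (0.04) and Myo1d (0.06). For Gas5 they were Cnpy2 (0.04), the ribosomal protein gene Rpl31 (0.05) and Dnajc17 (0.05), after 1 gene without a name that lay between Cnpy2 and Rpl31 was passed over. For H19 they were Shank2, Ctnnbip1 and Cbr1, all at a distance of 0.16, farther off than those of the other 2 RNAs. Cbr1, which encodes a carbonyl reductase, was at 162, 125 and 145 TPM in WT and at 217, 282 and 205 TPM in KO (limma adjusted p 0.522). The search picked Cbr1 for its likeness to H19, so a like difference between the groups follows from the search. The deviations of H19 from its own mean were also larger, with a root mean square of 0.49, against 0.20 for Malat1 and 0.25 for Gas5.

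**Figure D5:**
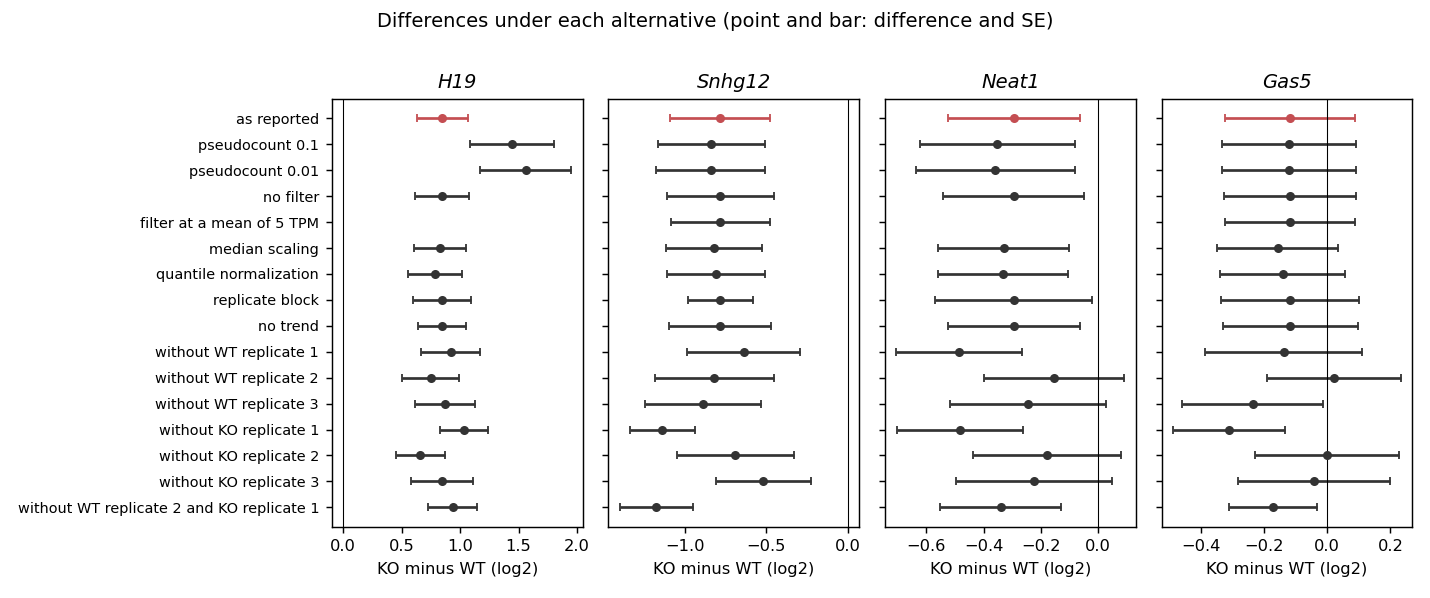
Difference KO minus WT for H19, Snhg12, Neat1 and Gas5 under each alternative setting; points are log2 differences, bars their SE, and red marks the value as reported, with no point where a gene was not tested. H19 is above 0 (0.66 to 1.56) and Snhg12 below 0 (-1.17 to -0.52) under every setting shown in which it was tested, while Gas5 reaches 0.0225 without WT replicate 2.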

How the data were processed

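Per the labels' protocols, liver RNA was isolated with TRIzol and read on a HiSeq machine. FastQC, Trimmomatic and the build mm10 are named in the submitters' processing notes. For the aligner, the counting tool and strandedness, the answer is not given in the sources used here. Each library has a column that, per the file headers, holds TPM. What the authors deposited in it is log2 TPM: the numbers go below 0, and their antilogarithms sum to 983800 to 1018120. The highest value is the same in every library and values of equal rank are close, as after a quantile normalization of the listed values, a step that no source states. With blanks as 0 the distributions were not identical, and 57.4% of genes had a higher mean in KO, against 50.9% after median scaling. Gene length in bases is another deposited column.

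Values were turned back into TPM, with a blank as 0. Genes averaging at least 0.5 TPM were fitted with limma 3.58.1 in R 4.3.3 on log2(TPM + 1) (group the sole term, eBayes with a mean-variance trend, two-sided), Benjamini-Hochberg adjusted at 0.05, after a test on simulated data. TPM keeps no depth, so precision rests on 3 libraries per group. Older symbols of 3 listed genes were matched through the RefSeq gene table of GRCm38.p6. The 10 RNAs and all lists were chosen with earlier results of these data known. In each list the 3 genes with the smallest p are named, except for 1 gene that is not reported here, and other listed genes were named after their values were seen. Alternatives were other pseudocounts, filters, scalings, a replicate block, no trend and leaving out libraries.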

Additional observations from a re-analysis of the deposited data

How the results depend on the processing

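None of the RNAs passed the adjusted threshold under any alternative. H19 had an unadjusted limma p under 0.05 in every setting that tested it, while Snhg12 lost it without a filter and without WT replicate 1, WT replicate 2, KO replicate 2 or KO replicate 3. The number of genes past the threshold was 1 as reported, 0 without a filter and 0 with the replicate block, 0 to 6 when any 1 library was left out (0 without WT replicate 1 or KO replicate 2, 6 without WT replicate 3, 4 without KO replicate 3), and 3 without WT replicate 2 and KO replicate 1, a setting chosen after seeing the data. The differences of H19, Snhg12 and Neat1 kept their sign throughout. Those of some other genes did not. Leaving out 1 library gave -0.12 to 0.16 for Malat1, -0.31 to 0.0225 for Gas5, -0.16 to 0.11 for Snhg1 and -0.0204 to 0.22 for Snhg8. It gave -0.00396 to 0.33 for Rbm14 and -0.0783 to 0.38 for Afp, which were at 0.21 and 0.20 as reported. Without WT replicate 2 and KO replicate 1, Malat1 was at -0.16 and Snhg1 at 0.0175, and with a pseudocount of 0.01 Snhg1 was at 4.3e-05. The median of Neat1 and Malat1 became 0.0562 with a filter at 5 TPM, which leaves Malat1 alone. For the imprinted RNAs the median, that of H19 alone, was 1.44 with a pseudocount of 0.1, 1.56 with 0.01 and 0.0281 without a filter, which adds Meg3, Rian and Mirg. The cause of the other shifts was not tested. Same-numbered samples did not deviate together (correlations of -0.26, -0.27 and -0.05), so the numbers were not read as a pairing. With the block the limma adjusted p was 0.822 for H19 and 0.822 for Snhg12. The unadjusted limma p rose from 0.00506 to 0.0147 for H19 and fell from 0.0358 to 0.00759 for Snhg12.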
